A study of Homo sapiens with 17 samples.

Results

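The contacts described here were the naive promoter contacts whose ends lay on the same chromosome and whose fragment middles were more than 1 Mb apart. They numbered 1334 of the 79330 contacts in the naive Promoter Capture Hi-C (PCHi-C) list, after pairs listed from both baits had been merged. Beyond the score that put a contact in the list, the choice used position only. Of these, 315 (23.6%) had both ends on chromosome 6 between 26 and 35 Mb, the region of the large histone gene cluster and the major histocompatibility complex, and 1019 lay elsewhere. The primed list held 5985 contacts over the same distance, of which 69 were in the chromosome 6 region and 5916 elsewhere.

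All samples were cells of H9 NK2, an established line of human embryonic stem cells, in the naive or the primed state of pluripotency. Naive pluripotent stem cells (PSCs) were kept on Matrigel in N2B27-based medium with PD0325901, CHIR99021, human LIF and the inhibitor Go6983, and primed PSCs on Vitronectin in TeSR-E8, both at low oxygen. PCHi-C, which joins DNA ends that lie close together in fixed nuclei and captures the pairs that hold a baited promoter, was done with 2 replicates per state, but the deposited list is 1 per state with a CHiCAGO score of at least 5, so that replicate spread is unknown for every contact. Hi-C without capture was deposited for 1 library per state, and H3K4me1, a histone mark of enhancers and promoter flanks, for 2 naive and 3 primed CUT&RUN libraries. Intervals of counts and shares cover counting error only.

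Replication-dependent histone genes have no introns and are transcribed mainly in S phase, when new nucleosomes must be built. In human cells most of them sit in clusters on chromosome 6, separated by stretches of transfer RNA, zinc finger, butyrophilin and olfactory receptor genes. In the nucleus, active histone genes are gathered in histone locus bodies, where factors for their transcription and for the processing of their mRNA ends accumulate.

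Most chromosome 6 contacts began or ended at a histone promoter, and 6 such promoters on fragments with many contacts are shown, covering the 5 histone classes. Each is the 200 bases before the transcript start in RefSeq (GRCh38.p14), printed 5′ to 3′ on the strand of the gene. Capitals mark matches on either strand to 4 motifs. TATAAA is the core of many eukaryotic promoters, and CCAAT is bound by the factor NF-Y. The element AAACACA is known from genes of the linker histone H1, and the octamer ATTTGCAT is bound by OCT proteins.
H1-1 (chr6:26017788-26017987, minus strand): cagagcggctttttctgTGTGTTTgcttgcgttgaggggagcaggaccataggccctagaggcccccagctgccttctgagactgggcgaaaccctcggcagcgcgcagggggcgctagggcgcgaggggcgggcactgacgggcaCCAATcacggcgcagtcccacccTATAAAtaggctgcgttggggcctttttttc
H1-5 (chr6:27867589-27867788, minus strand): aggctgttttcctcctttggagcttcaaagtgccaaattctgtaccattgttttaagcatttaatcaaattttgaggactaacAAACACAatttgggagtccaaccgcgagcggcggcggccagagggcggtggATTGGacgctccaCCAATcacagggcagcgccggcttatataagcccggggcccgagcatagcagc
H2AC4 (chr6:26033619-26033818, minus strand): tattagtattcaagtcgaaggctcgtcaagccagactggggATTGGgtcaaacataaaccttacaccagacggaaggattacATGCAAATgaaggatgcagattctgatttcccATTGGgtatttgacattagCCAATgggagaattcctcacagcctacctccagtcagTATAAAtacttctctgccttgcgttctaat
H2BC17 (chr6:27893225-27893424, plus strand): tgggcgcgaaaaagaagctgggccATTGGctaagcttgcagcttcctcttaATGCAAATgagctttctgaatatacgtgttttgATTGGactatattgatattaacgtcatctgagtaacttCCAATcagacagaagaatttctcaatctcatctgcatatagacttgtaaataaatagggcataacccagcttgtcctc
H3C2 (chr6:26032100-26032299, minus strand): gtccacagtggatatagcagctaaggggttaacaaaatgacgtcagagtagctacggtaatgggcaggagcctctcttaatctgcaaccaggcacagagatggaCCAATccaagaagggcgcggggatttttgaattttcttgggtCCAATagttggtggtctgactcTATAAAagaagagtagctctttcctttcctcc
H4C13 (chr6:27873535-27873734, minus strand): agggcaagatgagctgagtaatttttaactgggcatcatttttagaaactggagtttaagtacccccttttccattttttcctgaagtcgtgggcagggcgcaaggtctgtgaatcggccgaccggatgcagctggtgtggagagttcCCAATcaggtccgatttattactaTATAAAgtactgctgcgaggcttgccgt
The H2BC17 window is crossed by a HindIII site, and the fragments on both sides of it had many contacts, 19 and 11. Over the 250 bases upstream, 52 windows of 48 of the 53 histone genes could be searched. TATAAA was present in 34 of them (65.4%) against 10.7% of all 35116 promoters, and CCAAT in 45 (86.5%) against 32.0%. CCAAT was found in every H1, H2A, H2B and H3 window but in 3 of 10 H4 windows, that of H4C13 among them. The other motifs also differed between classes. AAACACA was found in the 6 H1 windows and in no window of the other classes, against 4.82% of all promoters. ATTTGCAT was found in 8 of 10 H2A and 12 of 16 H2B windows, in 1 of 10 H3 windows and in none of 10 H4 windows, against 1.63% of all promoters. These letter matches are descriptions of the fragments and not measured binding sites.

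The chromosome 6 contacts were almost wholly contacts between histone gene blocks. Of 315, 306 joined a western block (chr6:26016454-26331029, 46 fragments) with an eastern block (chr6:27802597-27897145, 22 fragments) or with a small middle block (chr6:27131323-27147745, 5 fragments). Between the western and eastern blocks the naive list held 285 contacts and the primed list 59, and between the western and middle blocks 21 and 7. Reads summed to 2373 over the 306 naive contacts and to 385 over the 66 primed contacts between the same blocks. A histone promoter lay at both ends of 181 naive contacts (57.5%) and at 1 end of 124, and 10 contacts had none. The median distance was 1.64 Mb, with a range of 1.02 to 1.88 Mb.

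All classes of histone gene took part. In the naive list each of the 6 H1, 11 H2A, 14 H2B, 10 H3 and 12 H4 genes of the region lay on a fragment with a contact over 1 Mb. In the primed list this held for 3 H1, 7 H2A, 12 H2B, 9 H3 and 10 H4 genes. H1 genes encode the linker histone, and their fragments had 84 naive and 9 primed contacts. For the core histones the naive and primed numbers were 110 and 32 for H2A, 154 and 45 for H2B, 179 and 46 for H3 and 162 and 34 for H4, where a contact between classes counts in each. Several genes share a fragment, so the classes are not independent of each other. Of the interspersed families, 5 of 140 tRNA genes were on a naive contact, while the 9 butyrophilin, 26 zinc finger and SCAN and 16 olfactory receptor genes had none. Capture limits this, since 15 of those tRNA, 4 butyrophilin, 16 zinc finger and SCAN and 11 olfactory receptor genes were baited, against 10 of 11 H2A, 13 of 14 H2B and all H1, H3 and H4 genes.

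The contacts gathered on few fragments. Fragments with at least 10 naive contacts over 1 Mb, here called hubs, numbered 24 among the 82 fragments of the chromosome 6 region, and 300 of the 315 contacts (95.2%) touched one. Baits were present on 22 of the 24 hubs. The fragment of H1-5, a linker histone gene of the eastern block, had 44 naive contacts over 1 Mb and 7 primed ones. Up to 1 Mb the same fragment had 21 naive and 18 primed contacts. The fragment of H2BC13, H2BC14 and H3C10 had 33 naive and 10 primed contacts over 1 Mb. H4C12 had 31 naive and 10 primed contacts, and the baited fragment of H3C11 and H4C13 had 30 and 3. These 4 hubs lay in the eastern block and reached across to the western one. On the western side the fragment of H2AC7, H2BC7 and H3C4 led, with 21 naive and 11 primed contacts. H1-1, H3C1 and H4C1, at the western edge, shared a fragment with 16 naive contacts and none in the primed list. It differed up to 1 Mb too, with 9 naive contacts and 1 primed one, as did H4C2 with 12 and 3 and H4C6 with 11 and 3, whereas H4C12 had 19 in each list and H4C11 15 and 20. Each of the 24 hubs had fewer primed than naive contacts over 1 Mb. Hubs were chosen by their naive number, which favours this direction. The region as a whole held 315 naive and 69 primed contacts over this distance.

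**Figure D1:**
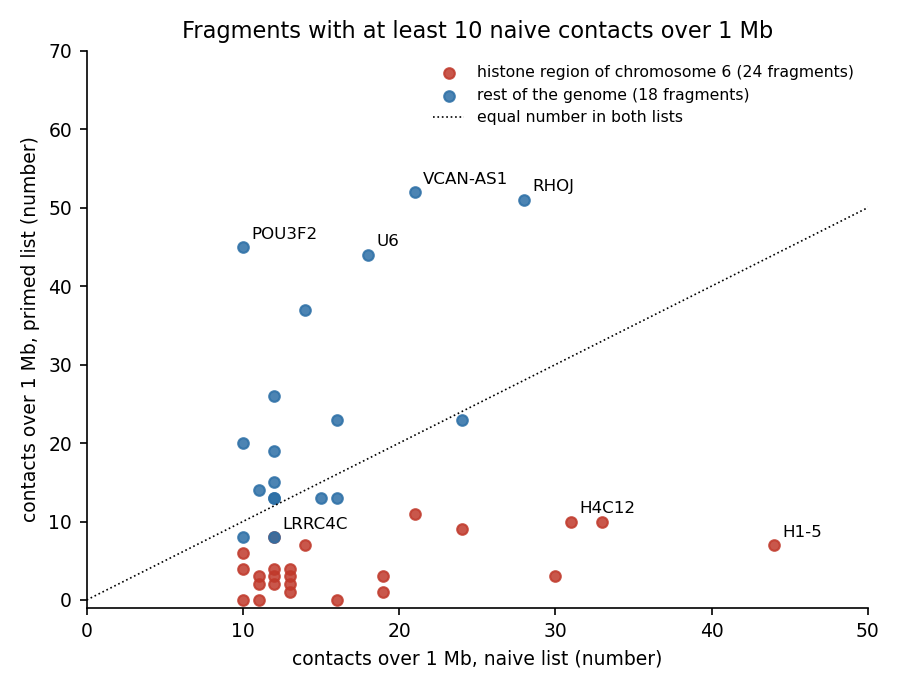
Number of contacts over 1 Mb in the naive list (x axis) and in the primed list (y axis) for each of the 42 fragments with at least 10 naive contacts, with the dotted line at equal numbers. The 24 fragments of the histone region, from H1-5 at 44 and 7 downwards, lie below the line, while most of the 18 others, such as RHOJ at 28 and 51, lie above it. All were chosen by their naive number, which favours a place below the line.

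The 5 pairs with the highest scores all ended at 3 neighbouring eastern fragments. The highest score belonged to the pair of H2AC4 and H3C2 with H1-5 (chr6:26032077-26034363 and chr6:27866573-27869842, 1.83 Mb apart), with 24 naive reads and a score of 54.5, against 10 reads and a score of 17.8 in the primed list. Next came the fragment of H2AC7, H2BC7 and H4C5 with H1-5, with 18 reads and a score of 37.7, and H2AC4 and H3C2 with H3C11, with 14 reads and a score of 36.1. Neither of these was in the primed list. The longest pair with at least 10 reads joined H1-1, H3C1 and H4C1 to H3C11 and H4C13 over 1.86 Mb, with 12 reads and no primed entry. H1-1, H3C1 and H4C1 with H1-5, 1.85 Mb apart, had 23 reads and was also listed for naive cells alone. Histone genes are near copies of each other. A 50-base word was shared between the ends of 8 of the 315 pairs, with at most 31 such words, and likeness to other fragments, and so whether reads were misplaced, was not tested.

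The 9 remaining chromosome 6 contacts had few reads, and none was in the primed list. TRIM27, which encodes a ubiquitin ligase, lay at an end of 5 of them, with 3 or 4 reads each. The contacts inside the major histocompatibility complex were HLA-E with HSPA1A and HSPA1L, and EHMT2 with HLA-DMB, with 3 reads each. HLA-E encodes a class I molecule, HLA-DMB a chain of the class II loading factor and EHMT2 a histone H3 lysine 9 methyltransferase. The pair with tRNA genes at both ends, 1.26 Mb apart, had 8 reads.

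The same pair of fragments was listed for primed cells in 54 of 315 chromosome 6 contacts (17.1%, 95% Wilson interval 13.4 to 21.7) and in 603 of the 1019 others (59.2%, 56.1 to 62.2). The background for naive contacts of 0.5 to 1 Mb was 54.3%, and for naive contacts up to 1 Mb within the chromosome 6 region 52.4%. The low share was thus found over 1 Mb in this region and not at shorter distance. Contacts that share a fragment are not independent, so these intervals are a description. The gap was present in each score class. For scores of 10 and over, 38 of 145 chromosome 6 contacts (26.2%, 19.7 to 33.9) and 146 of 160 others (91.3%, 85.8 to 94.7) were also primed. At 15 reads and over the shares were 8 of 17 (47.1%) and 154 of 170 (90.6%). Pairs with a histone promoter at both ends were also primed in 45 of 181 cases (24.9%), and those with 1 such end in 9 of 124 (7.26%). When a primed contact needed only to have both ends within 10 kb, 281 chromosome 6 contacts (89.2%) and 79.1% of the others had a counterpart. With both ends within 1 fragment the shares were 41.9% and 68.8%. The chromosome 6 contacts are packed into small blocks, which makes a match within 10 kb easier there. The primed list therefore held contacts between the same blocks but far fewer fragment pairs.

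**Figure D2:**
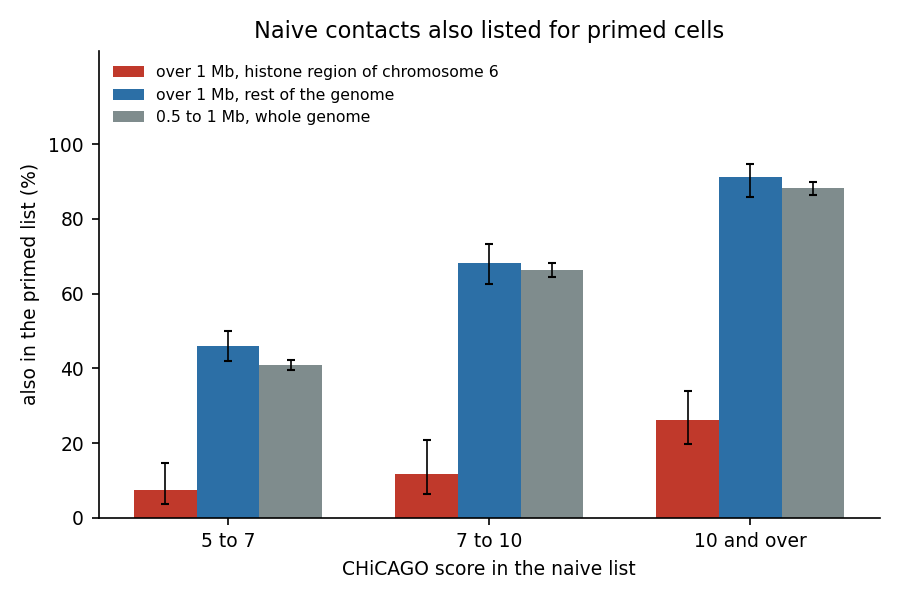
Share of naive contacts that the primed list also holds (y axis, percent) by naive CHiCAGO score class (x axis), for contacts over 1 Mb in the histone region, the other contacts over 1 Mb and contacts of 0.5 to 1 Mb, with 95% Wilson intervals from counting error. The histone region stands at 7.53%, 11.7% and 26.2%, and the other contacts over 1 Mb at 45.9%, 68.2% and 91.3%.

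Where both lists held a contact, the read numbers moved in opposite directions in the 2 groups. In the chromosome 6 region the naive read number was the higher in 46 of 54 contacts and the primed one in 2, with medians of 9 and 6. Elsewhere the naive number was the higher in 64 of 603 and the primed one in 508, with medians of 11 and 17. Summed naive reads were 1.72 times the primed reads in the chromosome 6 region and 0.628 times elsewhere. Shorter contacts lay between these values, at 0.869 up to 1 Mb, 0.730 for 0.5 to 1 Mb and 0.945 up to 1 Mb within the chromosome 6 region. CHiCAGO had scaled and rounded these read numbers before deposit. Their replicate spread is not known, and the difference was not tested. In bulk cells, a contact made in more cells and one made more often per cell cannot be told apart.

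**Figure D3:**
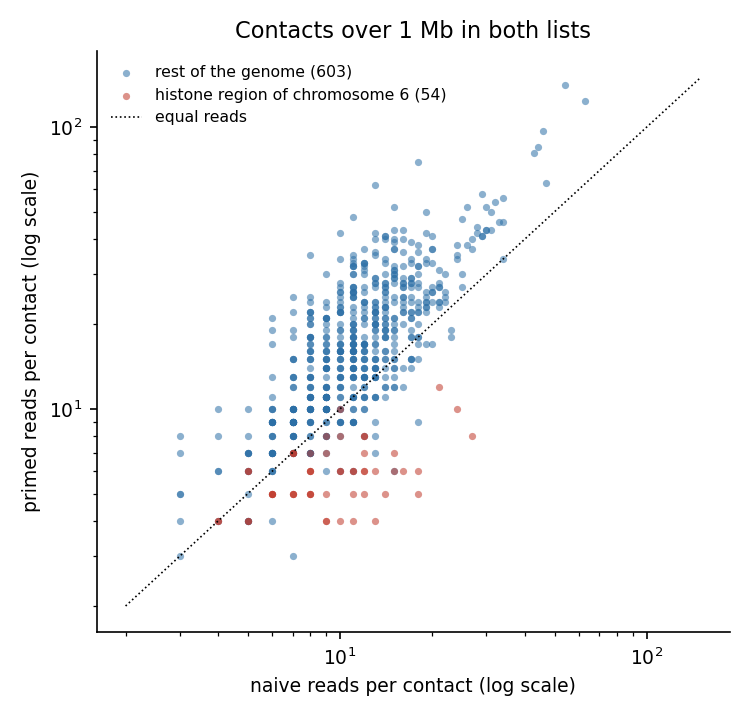
Naive reads (x axis, log scale) against primed reads (y axis, log scale) for contacts over 1 Mb in both lists, 54 in the histone region and 603 elsewhere, with a dotted line at equal reads. Most histone contacts lie below the line, 46 of 54, and most others above it, 508 of 603.

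Uncaptured Hi-C showed the same bins in contact. In bins of 100 kb, the pair of western and eastern bins that held 143 of the histone contacts had 66 contacts in the naive library (95% Poisson interval 51.0 to 84.0) and 34 in the primed one (23.5 to 47.5). The 2 other western bins had 45 and 30 naive contacts with the eastern bin, and 22 and 18 primed ones. Over the 3 pairs, 141 naive contacts stood against 74 primed contacts, although the primed library was the larger one. Scaled by the contacts between adjacent bins, 9765244 naive and 11431111 primed, the ratio was 2.23 (1.67 to 2.997, counting error only). Of the nearby partner bins, the one 200 kb before the eastern bin had all 3 pairs listed within 300 kb, and its ratio was 1.40 (0.802 to 2.45), an interval that overlaps the first. The bin of the middle block had 103 naive and 93 primed contacts, and its neighbour 53 and 38, so the scaled naive level was the higher there too. These comparison bins were those with all 3 pairs in the naive file. That choice favours a high naive level, so they cannot serve as a neutral background. In primed cells the eastern bin also rose above its neighbours, with 74 contacts against 30 and 22 in the bins on its 2 sides. The naive file leaves out many low pairs, and of the 3 pairs it listed 2 on the western side of the eastern bin, with 36 contacts, and none on the other side. By the paper's methods, PCHi-C was made by capture from Hi-C library DNA, so the assays cannot be taken as independent. With 1 Hi-C library per state, the spread between libraries is unknown.

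**Figure D4:**
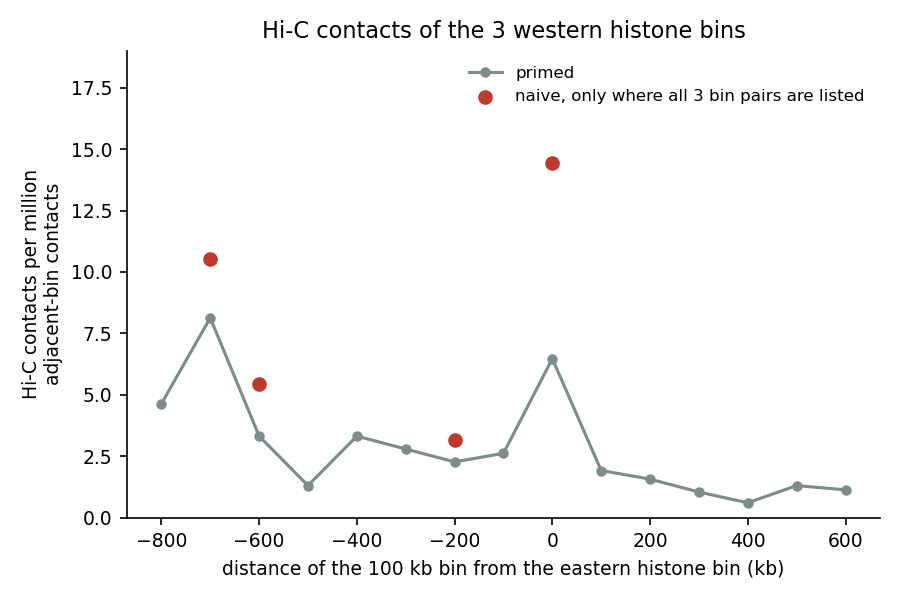
Hi-C contacts of the 3 western histone bins scaled to 1000000 adjacent-bin contacts (y axis) against the distance of the partner bin from the eastern histone bin (x axis, kb). The primed line reaches 6.47 at the eastern bin, and the naive point there is at 14.4, with naive points drawn only where all 3 bin pairs were listed.

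Relative to the contacts of all primed bin pairs of the same distance on the chromosome, the 12 bin pairs of the chromosome 6 region had a median of 0.50. It was 2.32, 1.91 and 1.40 for the 3 pairs between the western and eastern histone bins. The 468 bin pairs of the other contacts had a median of 3.79, with 5.49 for pairs with a contact in both lists and 3.002 for pairs with a contact in the naive list alone, where a bin pair can count in both. In the naive Hi-C file, 11 of the 12 and 358 of the 468 pairs (76.5%) were listed, against 17.1% and 16.5% of all pairs at matched distances. The contacts outside the histone region were therefore seen at high Hi-C frequency in primed cells too.

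The 1019 contacts outside the histone region were mostly short among long contacts, with a median of 1.21 Mb, and reached 218 Mb. Only 17 exceeded 5 Mb, and 16 of those had under 10 reads. The median read number was 10, against 7 in the chromosome 6 region, and 48.5% and 76.2% of contacts had under 10 reads. A bait lay at both ends of 144 of 1019 contacts (14.1%) and of 151 of 315 (47.9%). Protein-coding genes between the ends numbered a median of 1.81 per Mb outside the histone region and 23.9 per Mb inside it, while the genome as a whole has 6.48 per Mb. By chromosome, chromosomes 2, 5, 16 and 14 held the most, with 107, 98, 87 and 87 contacts. The primed list held the largest share on chromosome 7, 33 of 40, and the smallest on chromosome 20, 0 of 6, and on the X chromosome, 11 of 43. Of the X contacts, 8 formed a connected part with FATE1, a testis-expressed gene, and 1 of them was also primed.

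These contacts were scattered over many loci. They formed 333 connected parts, of which 190 were single contacts, and 20 parts with at least 10 contacts held 370 of them. In 162 parts no contact was in the primed list and in 99 parts all were, but a single contact can only be the one or the other. Of the 56 parts with at least 5 contacts, 2 had none in the primed list. Most fragments, 80.6% of 1315, had a single contact. Hubs numbered 18, all baited, and touched 265 of the 1019 contacts.

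The hub fragment of RHOJ, which encodes a small GTPase, had the most, with 28 naive and 51 primed contacts over 1 Mb, 13 of them in both lists. It had none up to 1 Mb in either list, and its naive-only contacts lay a median of 2.62 Mb away. VCAN-AS1, antisense to the gene of the matrix proteoglycan versican, followed the same direction with 21 naive and 52 primed contacts. So did POU3F2, a neural transcription factor gene, with 10 and 45, and a U6 small nuclear RNA gene on chromosome 21 with 18 and 44. LINC02880 had 14 and 37, and ASB4, a SOCS-box protein gene, 12 and 26. MAGEL2, an imprinted gene of the Prader-Willi region, had 16 and 23. Several hubs had close to equal numbers. The fragment of DNAH3 and LDAF1, a dynein heavy chain and a lipid droplet factor, had 24 and 23, and CRBN, the ubiquitin ligase receptor bound by thalidomide, 12 and 15. IGFBP5, which encodes a binding protein of insulin-like growth factors, had 12 and 13. LINC02118 (16 and 13), YBX1P1 (15 and 13) and LRRC4C (12 and 8) had more in the naive list, where YBX1P1 is a pseudogene and LRRC4C encodes a netrin ligand of synapses. BCL6, a transcriptional repressor gene, had 12 and 19.

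For METTL9, a histidine methyltransferase gene, the totals were near each other but the pairs were not. Its hub had 12 naive and 13 primed contacts over 1 Mb, and 1 of them was in both lists. A second fragment with IGSF6 and METTL9 promoters had 10 naive and 8 primed contacts, again with 1 in common. The naive-only contacts of METTL9 lay a median of 1.17 Mb away, at up to 1.22 Mb, and its primed-only contacts a median of 1.23 Mb, at up to 1.49 Mb. Both sets ran in the same direction along chromosome 16, and DNAH3 and LDAF1 belonged to the same connected part of 54 contacts, of which 21 (38.9%) were also primed. In contrast, 12 of 12 contacts of ASB4, 10 of 10 of IGFBP3 and 19 of 21 of VCAN-AS1 were in both lists.

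The highest score of all belonged to ZNF595, a zinc finger gene near the end of the short arm of chromosome 4, with a fragment 49.3 Mb away beside the centromere. The pair had 25 naive and 27 primed reads, but scores of 154 and 26.9. NPIPB15, a member of a duplicated gene family on chromosome 16, made 3 of the 5 pairs with the highest scores. Over 4.22 Mb it contacted chr16:70151791-70159101 with 19 naive reads, a score of 51.6 and 24 primed reads. Its pair with CLEC18C, a C-type lectin gene, had 13 naive and 7 primed reads. The U6 gene of chromosome 21 had 63 naive and 124 primed reads with a fragment 1.89 Mb away. All 5 of these pairs were in the primed list, in contrast to 2 of the 5 pairs with the highest scores in the histone region. The ends of these 5 pairs shared no 50-base word, whereas 8 of all 1019 pairs did, with up to 18613 words in 1 pair. This compares only the ends of a pair. Likeness to other fragments, and so whether reads were misplaced, was not tested for these pairs either.

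Homeobox and developmental genes, which carry many of the long contacts of primed cells, were few among the naive ones. The list was made by symbol from families such as HOX, NKX, PAX, LHX, TBX, FOX, SOX and GATA, and leaves out POU genes such as POU3F2. Of its 164 genes, 12 lay on a naive contact over 1 Mb and 90 on a primed one, with 24 and 645 contacts. Among those with naive contacts were FOXP2, 7 HOXD genes, NKX6-1, SOX4 and TBX3, and 19 of the 24 contacts were also primed. All contacts over 1 Mb outside the histone region numbered 1019 naive and 5916 primed ones, so a lower naive number is not by itself particular to a family. Protocadherins had 5 naive and 22 primed contacts, zinc finger genes 7 and 43, and keratin genes and pseudogenes 1 and 3. Ribosomal protein genes had 1 and 3, and small nuclear and nucleolar RNA genes and their pseudogenes 75 and 474.

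Contacts next to the distance threshold on either side are given as a description. The 216 naive contacts just under it, of 0.95 to 1 Mb, had a median of 12 reads and 62.0% were also primed. The 187 in the next 50 kb above it had a median of 11 reads and 63.6% were also primed.

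H3K4me1 was read as log2 RPM (reads scaled to 1000000 per library), averaged over the 500 bp tiles that touch each fragment. Neighbouring fragments can thus share a tile, and the value of a small fragment takes in part of its neighbours. At promoters of 8 naive marker genes, including DPPA5, DNMT3L and ARGFX, 6 were higher in naive libraries and none in primed ones. Of 8 primed markers, THY1 and TCF7L1 were higher in primed libraries and none in naive ones. Among all fragments tested, 25.4% were higher in naive and 27.1% in primed libraries, so the primed markers were called at about that share. Among 3 fibroblast genes THY1 and COL1A2 were higher in primed libraries and COL1A1 did not pass the test, and whether other cells had a part in the results was not tested. An empty tile stood between -4.89 and -2.91 log2 RPM, according to library depth.

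H3K4me1 was higher in naive libraries at many fragments of the histone region. Its mean over the 82 fragments was -0.59 and -0.51 log2 RPM in the naive libraries and -0.98, -1.57 and -1.38 in the primed ones. The groups did not overlap. Over the 1315 other fragments it was -2.32 and -1.92 in naive and -1.97, -2.04 and -2.27 in primed libraries, which overlapped. A tile above 0 log2 RPM in at least 2 libraries was needed for the limma test, and 64 of 82 and 543 of 1315 fragments passed. Whether the libraries came from separate cultures is not stated, so p-values measure only the spread between these libraries. By limma with Benjamini-Hochberg adjustment over all 167714 fragments tested, 25.4% of all fragments were higher in naive and 27.1% in primed libraries. In the histone region 28 of the 64 (43.8%) were higher in naive and 2 (3.13%) in primed libraries, with a median log2 difference of 0.88. Without the first or the second naive library these 28 of 64 became 18 and 16 of 64, against 20.2% and 18.7% of all fragments. In those fits the lone naive library is assumed to vary like the primed ones. Among the other contacts 111 of the 543 (20.4%) were higher in naive and 96 (17.7%) in primed libraries, with a median of 0.07, and without the first naive library 70 and 46. At fragments of naive contacts up to 1 Mb only, the shares were 30.3% and 14.3%.

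Of the 24 histone hub fragments 19 were tested and 5 (26.3%) were higher in naive libraries, near the 25.4% of all fragments, namely those of H3C6, H4C7, H4C6, H4C4 and H2AC16. None of the 19 was higher in primed libraries, against 27.1% of all fragments and 10.5% of baited fragments of any contact. Their median log2 difference was 0.68, against -0.03 for all fragments and 0.30 for those baited ones. Most hubs were baited. The leading hub, H1-5, had -0.12 and -0.25 log2 RPM in naive and -0.42, -0.92 and -1.26 in primed libraries, without overlap, but a log2 difference of 0.68 ± 0.38 (SE) that did not pass (limma adjusted p = 0.15). Of all tested fragments of the region, 12 of 27 unbaited ones (44.4%) and 16 of 37 baited ones (43.2%) were higher in naive libraries.

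The fragments with the largest changes included stretches between histone genes. Fragment chr6:26237930-26238512, without a promoter, had 0.54 and 0.46 log2 RPM in naive and -2.34, -3.03 and -3.54 in primed libraries, a difference of 3.47 ± 0.36 (SE, limma adjusted p = 1.2e-05). Its 5 contacts, with H1-5, H4C11, H4C12 and others, were in the naive list alone. The neighbouring fragment chr6:26236853-26237929, with 6 naive-only contacts, differed by 2.94 ± 0.31. It shares a tile with the first fragment, so these are not separate measurements. An unbaited fragment with the H4C11 promoter (chr6:27822737-27823187) had -0.25 and 0.49 in naive and -1.99, -2.98 and -2.09 in primed libraries, and 9 contacts listed for naive cells alone. The opposite direction was found close by. Fragment chr6:26234185-26234685 had -1.78 and -1.46 in naive and 1.66, 0.34 and 1.12 in primed libraries, a difference of -2.66 ± 0.44 (limma adjusted p = 0.00021). It too had naive-only contacts, 4 in number. The other fragment higher in primed libraries held HLA-DMB, with a difference of -0.91 ± 0.35.

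**Figure D5:**
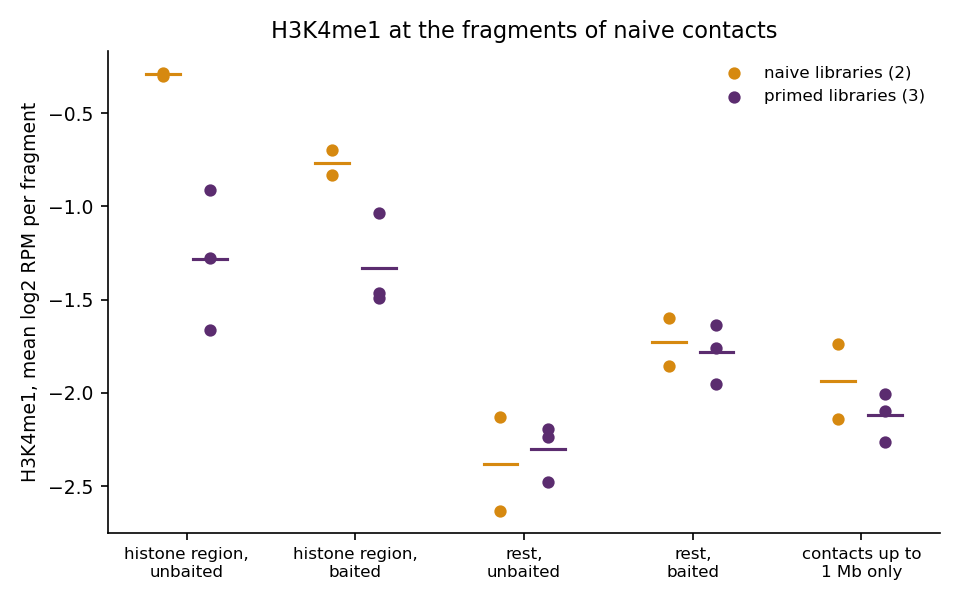
Mean H3K4me1 per fragment (y axis, log2 RPM) in each of the 2 naive and 3 primed libraries, for unbaited and baited fragments of the histone region and of the other contacts over 1 Mb, and for fragments of naive contacts up to 1 Mb only. Points are libraries and lines their means, and the naive points lie above the primed ones in both sets of the histone region, for example at -0.30 and -0.28 against -0.91, -1.66 and -1.28 for unbaited fragments.

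Outside the histone region single loci changed strongly in either direction. An unbaited fragment contacted by YBX1P1 (chr14:63100218-63100811) had 1.62 and 1.58 log2 RPM in naive and -1.85, -1.98 and -2.33 in primed libraries. ETFBKMT, the gene of a mitochondrial lysine methyltransferase, was on a fragment with 0.95 and 1.10 in naive and -2.65, -1.76 and -2.44 in primed libraries, yet all of its 5 contacts were in both lists. In the other direction, a fragment contacted by NRP2, a semaphorin receptor gene, had -3.41 and -2.53 in naive and 1.21, -0.14 and 0.70 in primed libraries. TCF4, the gene of a neural bHLH factor, differed by -3.08 ± 0.45 and COL12A1, a collagen gene, by -2.82 ± 0.39. The LRRC4C hub had -3.02 and -2.76 in naive and 0.55, -0.94 and -0.03 in primed libraries (difference -2.75 ± 0.41, limma adjusted p = 1e-04), although its contacts over 1 Mb were the more numerous in the naive list. RHOJ, with -2.26 and -1.99 in naive and -0.35, -1.19 and -0.72 in primed libraries, and POU3F2, with a difference of -1.20 ± 0.38, were both higher in primed libraries.

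Listing and H3K4me1 were then set side by side. Of the fragments outside the histone region with contacts in the naive list alone, 70 of 237 tested were higher in naive (29.5%) and 37 (15.6%) in primed libraries. Of those with a contact in both lists, 41 of 306 (13.4%) and 59 (19.3%) were. Over all fragments tested, the shares were 25.4% and 27.1%. At fragments of naive contacts up to 1 Mb only, they were 30.3% and 14.3%, near those for the naive list alone. Both ends of a contact were tested in 243 of 1019 pairs outside the histone region, and both were higher in naive libraries in 22 and in primed libraries in 15. In the histone region both ends were tested in 209 pairs, and 17 (8.13%) had both ends higher in naive libraries, against 9.05% outside it. No pair there could have both ends higher in primed libraries, since only 2 fragments were and they did not contact each other. All 17 were contacts of the naive list alone, as were 184 of the 209 tested pairs, and the other 25 are too few to set a share against.

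Taking the library as the replicate, H3K4me1 at histone region fragments exceeded that at the other fragments by 1.57 ± 0.23 log2 (SD, n = 2) in naive and 0.79 ± 0.27 (SD, n = 3) in primed libraries. This difference of 0.78 gave a two-sided exact permutation p of 0.1 (10 arrangements of the libraries, and the smallest p that 2 against 3 libraries allow). Fragments with contacts in the naive list alone exceeded those with contacts in both lists by 0.22 ± 0.03 (SD, n = 2) in naive and 0.03 ± 0.05 (SD, n = 3) in primed libraries, a difference of 0.19 (exact permutation p = 0.1). Fragments of contacts over 1 Mb differed from those of shorter contacts by -0.09 ± 0.01 (SD, n = 2) in naive and 0.07 ± 0.10 (SD, n = 3) in primed libraries, a difference of -0.16 (exact permutation p = 0.2). None of these comparisons can reach 0.05 in this design.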

How the data were processed

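For PCHi-C, the authors mapped read pairs to GRCh38 with HiCUP, combined the replicates in CHiCAGO and deposited, for pairs with a score of at least 5, the score and the scaled, rounded read number. Hi-C was deposited as counts of di-tags per pair of 100 kb bins, unnormalised. For H3K4me1, the authors deposited log2 RPM per 500 bp tile (Bowtie2 and Trim Galore, per the submitters' processing notes). Taking an empty tile as 0.9 reads puts these 5 libraries at 6.74 to 26.6 M reads. NANOG, SOX2 and input libraries were not used here.

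Fragments were matched to HindIII fragments of GRCh38, and all 172742 lines matched. Pairs listed from both baits were merged with the higher value kept. Promoters were the transcript start and 1000 bp upstream (GENCODE release 44, tRNA genes from RefSeq). H3K4me1 was compared with limma 3.58.1 (R 4.3.3, eBayes with trend, threshold 0.05 after Benjamini-Hochberg adjustment), which was tested on simulated data. The pairing of replicate numbers and other settings are given at the end. Connected parts were found with python-igraph 0.11.9. Intervals are 95% Wilson or exact Poisson.

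The contacts, gene lists and tests were chosen with earlier results of these data known. Named were the promoters of the 10 fragments with the most contacts in each region, with ties, the 5 pairs with the highest score and the 5 longest with at least 10 reads, whole gene families, and, in each direction, 5 fragments called without overlap of libraries whose H3K4me1 changed most. Other genes, among them FATE1, METTL9 with IGSF6, POU3F2, IGFBP3 and the genes of the 9 remaining chromosome 6 contacts, were named after their values had been seen.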

Additional observations from a re-analysis of the deposited data

How the results depend on the processing

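Depth limits these results, since the lists are 1 per state, most chromosome 6 contacts have under 10 reads, and the naive Hi-C file omits low pairs. With a score of at least 7, 662 contacts over 1 Mb remained, with a score of at least 10, 305, and with at least 10 reads, 600. In the chromosome 6 region 145 remained with a score of at least 10 and 75 with at least 10 reads. The share also primed there was then 26.2% and 34.7%, and 89.2% with ends within 10 kb and 41.9% within 1 fragment. Elsewhere it was 76.6% with a score of at least 7, 91.3% with one of at least 10, 76.6% with at least 10 reads, 79.1% within 10 kb and 68.8% within 1 fragment. The share stayed lower in the chromosome 6 region in each of these settings except that of 10 kb, where it was higher. Hubs numbered 44 and 56 with at least 5 contacts, 4 and 8 with at least 10 reads, and 9 and 0 with a score of at least 10, in the chromosome 6 region and elsewhere. Over 3 by 3 bins, 100% and 87.0% of the bin pairs were listed in the naive Hi-C file.

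For H3K4me1, the replicate block left 15 fragments of the chromosome 6 region higher in naive libraries, 23.4% against 18.4% of all fragments. Elsewhere 63 (11.6%) were higher in naive and 61 (11.2%) in primed libraries, against 18.4% and 21.3% of all fragments. Replicate number 3 occurs in primed libraries only, so that library does not enter the naive against primed contrast of this fit. The numbers are shared only by 2 pairs, whose deviations correlated at 0.082 and 0.099, so no pairing is shown. The highest tile gave 18 chromosome 6 fragments higher in naive libraries (28.1%, against 23.4% of all fragments). Without the filter, 1 rather than 2 was higher in primed ones (1.22%, against 8.26% of all fragments). Over all fragments, 45459 of 167714 were higher in primed libraries (27.1%), 70425 of 852873 (8.26%) without the filter and 27416 of 167714 without the first naive library. Leaving out 1 library gave 16 to 38 and 1 to 2 in the chromosome 6 region, with 16 when the second naive and 18 when the first naive library was left out, and 1 without any library but the third primed one. Elsewhere it gave 70 to 128 and 46 to 110, with 70 and 46 when the first naive library was left out and 73 higher in naive libraries without the third primed one. Without 1 primed library, 29.7% to 59.4% of chromosome 6 fragments and 13.4% to 23.6% of those elsewhere were higher in naive libraries. Of all fragments, 19.5% to 26.8% were. The shares higher in primed libraries were then 1.56% to 3.13%, 12.7% to 20.3% and, of all fragments, 22.1% to 29.9%. The differences of 0.78, 0.19 and -0.16 between sets of fragments kept their direction in all planned settings. They ran from 0.62 to 0.95, 0.17 to 0.22 and -0.21 to -0.11 without any 1 library, and the other planned settings gave 0.73 to 0.97, 0.17 to 0.38 and -0.28 to -0.17. The 0.38 came from fragments with a marked tile, and a score of at least 7 gave 0.36. Restricting fragments to baited, unbaited or 1 of the 2 regions was added after seeing the data. The difference between contacts over and up to 1 Mb then turned to 0.58 in the chromosome 6 region, against -0.21 elsewhere. The causes were not tested.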
